A study of Mus musculus with 18 samples.

Results

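The IL6 family was followed here as 10 genes of the 51435 in the deposited tables, chosen by their names as parts of this pathway: the ligands Il6, Il11, Lif and Osm, the ligand-specific receptors Il6ra, Il11ra1, Osmr and Lifr, the shared receptor subunit Il6st, and the feedback inhibitor Socs3. RNA was sequenced from the left ventricle (LV) of 18 male littermate mice, 9 WT and 9 WWP2Mut/Mut, after 28 days of Angiotensin II (AngII) delivered at 500 ng/kg/min by a pump implanted at 8 weeks of age. WWP2 is an E3 ubiquitin ligase, and the mutation is a CRISPR/Cas9 reading-frame deletion, on a C57BL/6J background, that removes the full-length and N-terminal isoforms and leaves the C-terminal one. All 18 mice received AngII and no saline-treated heart was analysed here, so the comparison is between genotypes in stressed hearts and says nothing of the response to AngII itself. The comparison asks whether loss of these WWP2 isoforms is accompanied by other levels of this pathway.

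The ligands of this family are small secreted proteins that bind a ligand-specific receptor and then engage gp130, the protein made by Il6st. gp130 activates JAK kinases and STAT3, which induces Socs3, and SOCS3 protein in turn binds gp130 and shuts the signal down. In the heart, IL11 acts on fibroblasts and has been linked to fibrosis, while LIF and oncostatin M act on cardiomyocytes and IL6 on leukocytes and hepatocytes as well.

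Library totals were 24566994 to 37451087 expected counts per mouse, and each of the 4 sequencing lanes held both genotypes. Wwp2 itself, the targeted gene, was at 3.83 to 6.01 TPM in WT mice and at 1.19 to 3.00 TPM in WWP2Mut/Mut mice, with no overlap. Its log2 fold change was -1.40 (SE 0.157, edgeR quasi-likelihood test, adjusted p = 0.00113). The summed TPM of 7 cardiomyocyte markers lay between 37384 and 49981 in all mice. Transcripts of hepatocytes were also present. Of 10 such markers, 10 were lower in WWP2Mut/Mut mice at an edgeR unadjusted p below 0.05, against 2.57% of all genes tested, and none was called. Their sum ran from 4.4 to 340 TPM in WT mice and from 4.79 to 63.5 TPM in WWP2Mut/Mut mice (exact permutation test, p = 0.0468).

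The STAT-type sequence TTCNNNGAA, where N is any base and which reads the same on both strands, was looked for in the promoters of the members because STAT3 binds such sites. Windows of 250 bases before to 50 bases after each start were taken from RefSeq (GRCm38.p6), which gave 12 windows for 9 of the 10 members, Osm having none in the table. The sequence occurred in 1 of these 12 windows, that of Socs3, at position -154 from the RefSeq start, and it occurred in 8.30% of all 32851 promoter windows. The Socs3 window, chr11:117969317-117969616, lies inside the gene span given below (chr11:117966079-117970047, minus strand), which starts farther upstream than the RefSeq start. The 100 bases around the match, at chr11:117969467-117969566 on the minus strand, are shown with the match in capitals because Socs3 is the readout of the pathway here.
Socs3: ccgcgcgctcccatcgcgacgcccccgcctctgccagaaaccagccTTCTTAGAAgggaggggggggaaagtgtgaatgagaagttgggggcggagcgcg

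Most receptors were plainly expressed and the ligands were barely detected. In TPM, which is per length and so can be set side by side between genes, the order of the mean levels over 18 mice was Il11ra1 at 53.8, Il6st at 21.4, Lifr at 3.15, Osmr at 2.64, Socs3 at 1.70 and Il6ra at 0.508, followed by Lif at 0.0844, Il6 at 0.0617, Il11 at 0.0494 and Osm at 0.0483. Each neighbour from Il11ra1 down to Lif differed from the next (two-sided exact sign-flip permutation test on log2(TPM + 0.1) within mice, p = 7.63e-06 for 5 of the 6 pairs). The remaining pair of those 6, Lifr over Osmr, was higher in 14 of 18 mice (exact sign-flip test, p = 0.000656). Among the ligands, Lif and Il6 (exact sign-flip test, p = 0.0814), Il6 and Il11 (p = 0.421) and Il11 and Osm (p = 0.848) were not separated beyond the spread between mice.

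**Figure D1:**
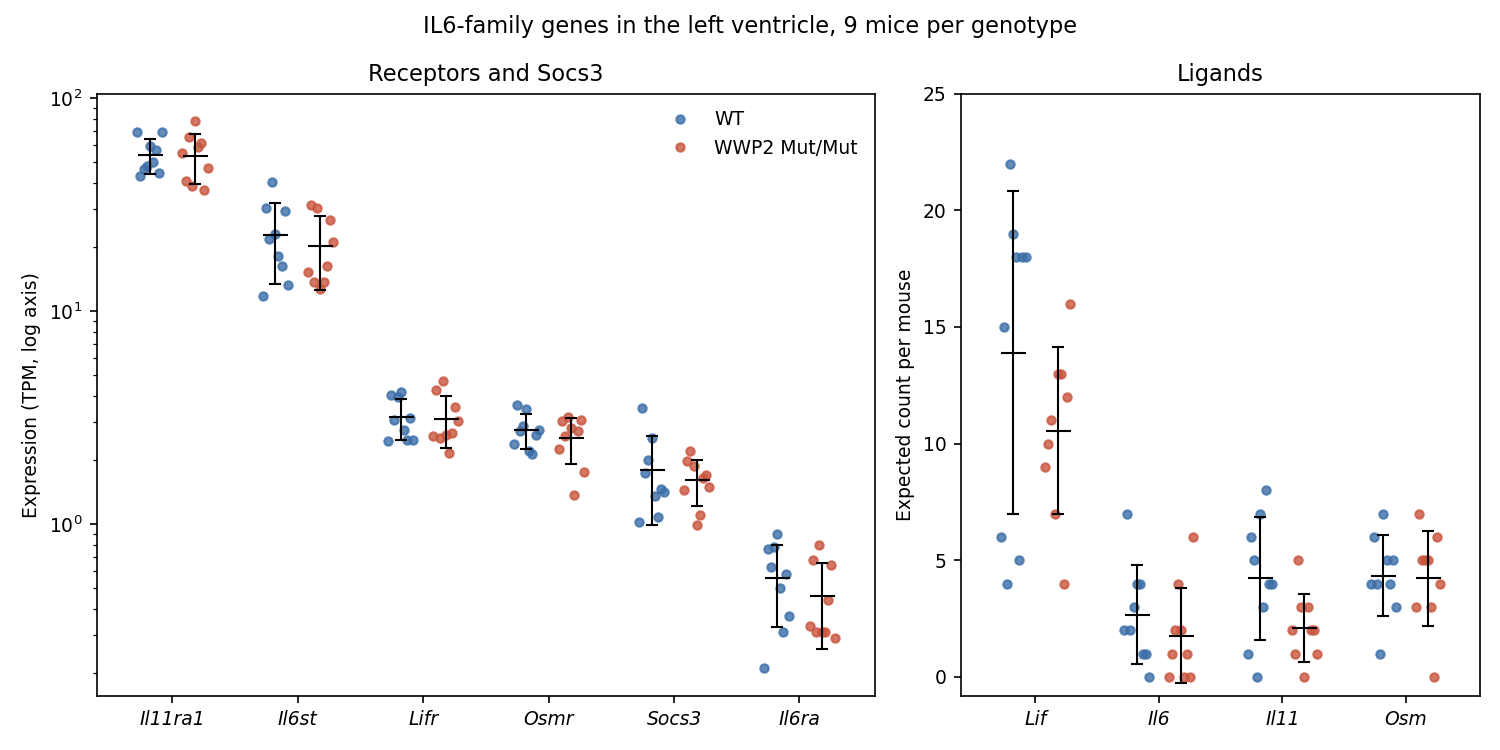
Expression of the 10 genes in each of 18 mice, with receptors and Socs3 in TPM on a log axis (left) and ligands in expected counts on a linear axis (right). Points are mice, black bars are the mean ± SD of 9 mice, and WT and WWP2Mut/Mut points overlap for each gene.

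Among the receptors, Il11ra1, the receptor of IL11, was far above Il6ra, the receptor of IL6. The ratio of Il11ra1 to Il6ra had a median of 120 and ran from 48.2 to 329 over the 18 mice. Its median was 76.5 in WT and 161 in WWP2Mut/Mut mice, a difference that was not tested. Both parts of the ratio varied with the gene body coverage fraction of the library, a measure described below, in opposite directions. On log2(TPM + 1), r was 0.925 for Il11ra1 and -0.743 for Il6ra over 18 mice. The median fraction was 0.0383 in WT and 0.0434 in WWP2Mut/Mut mice, with overlap (exact permutation test, p = 0.720). Whether the fraction accounts for the difference in the ratio was not tested. In the edgeR fit the log2 fold changes of the genotypes were 0.12 for Il11ra1 and -0.09 for Il6ra. Il11ra1 was also above Il6st in each mouse, by a median ratio of 2.68 that ran from 1.18 to 6.14. Il6st fell with the coverage fraction (r = -0.941 on log2(TPM + 1)) where Il11ra1 rose. The part of the fraction in this ratio was not tested. Il6st exceeded Lifr, the LIF receptor, by a median of 6.50 times and Osmr, the oncostatin M receptor, by a median of 8.10 times. These ratios are between whole-tissue levels, in which fewer cells of a type and less RNA per cell cannot be told apart.

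The reading of Il11ra1 carries a limit from its locus. The gene spans chr4:41699989-41769474 on the plus strand (GRCm38, GENCODE annotation) and overlaps Galt on the same strand and genes on the opposite strand that include Rpp25l, Dctn3, Arid3c and Ccl27a. Its counts were 2042 to 3569 per mouse. Those of Galt were 964 to 1895, those of Dctn3 751 to 1561 and those of Ccl27a 84.6 to 267. A near-identical copy, Il11ra2 (chr4:42656355-42661893, minus strand), received 0 to 43.5 counts per mouse, so the division of reads between the copies is uncertain. Il6ra also overlaps another gene model, Gm42809, on the opposite strand.

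The ligands rested on very few reads. Il6 (chr5:30013114-30019981) had a median of 2 counts in WT mice (0 to 7) and 1 in WWP2Mut/Mut mice (0 to 6), and 4 of 18 mice had none. Lif (chr11:4257557-4272514) was the one ligand seen in all 18 mice, with a median of 18 counts in WT mice (4 to 22) and 11 in WWP2Mut/Mut mice (4 to 16). Osm (chr11:4236420-4241026) had a median of 4 counts in WT mice (1 to 7) and 5 in WWP2Mut/Mut mice (0 to 7). The 4 ligands together gave 7 to 37 counts per mouse, with a median of 20. A count of 0 allows up to 3 counts, which was 0.0801 to 0.122 CPM (counts scaled to the library total) depending on the library, for counting error only. Il6, Il11 and Osm thus lay near this limit in many mice of either genotype, and Lif lay above it in all 18 mice.

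Il11, the profibrotic ligand, had the largest genotype difference of the 10 members in the edgeR fit, and it was within error. It was not the largest in limma on log2(TPM + 1) or log2(TPM + 0.1), and in edgeR Il6 had a larger one in 3 of the 18 fits that left out a mouse. In the WT mice Il11 (chr7:4772373-4782859) was at 0, 0.01, 0.03, 0.05, 0.06, 0.08, 0.11, 0.12 and 0.13 TPM. In the WWP2Mut/Mut mice it was at 0, 0.02, 0.03 in 5 mice, 0.06 and 0.07 TPM. The groups overlapped, with 4 WT mice above every WWP2Mut/Mut mouse. These values came from 38 counts over all WT mice and 19 over all WWP2Mut/Mut mice. The difference in mean TPM was 0.0656 ± 0.0477 (SD, n = 9) against 0.0333 ± 0.0206 (SD, n = 9; two-sided exact permutation test, p = 0.0944), and the mean was lower in WWP2Mut/Mut mice in 4 of 4 lanes. In the fit over all genes the log2 fold change was -0.78 (SE 0.623, 95% interval -2.09 to 0.52, edgeR unadjusted p = 0.224, adjusted p = 1). When each mouse was left out in turn it ran from -1.46, without WWP2Mut/Mut mouse 24-3 (edgeR unadjusted p = 0.0655), to -0.53.

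No member of the family was called between genotypes. Of the 10 members, 0 had an adjusted p below 0.05 and 0 had an unadjusted p below 0.05 in the edgeR quasi-likelihood test, where 0.00403% of all 24804 genes tested were called (1 gene, Wwp2) and 3.66% had an unadjusted p below 0.05. DESeq2 and limma called 0 of the 10 as well. With hepatocyte markers as a further covariate, 1 of the 10, Il11ra1, had an edgeR unadjusted p below 0.05, against 5.75% of all genes in that fit. The median log2 fold change of the members was -0.06, with 8 below 0 and 2 above, and that of all genes was -0.01.

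The receptors Il11ra1, Lifr and Osmr were measured well enough to give narrow intervals in the main model. Il11ra1 had a lowest, median and highest level of 43.1, 50.1 and 69.5 TPM in WT mice and of 37.0, 55.1 and 78.1 TPM in WWP2Mut/Mut mice. Its ranges overlapped, and the log2 fold change was 0.12 with a 95% interval of -0.11 to 0.36, that is 0.925 to 1.28 times the WT level. For Lifr, at 3.17 ± 0.705 TPM in WT and 3.13 ± 0.863 TPM in WWP2Mut/Mut mice (SD, n = 9 each), it was 0.02 with an interval of -0.23 to 0.28. Osmr, at 2.76 ± 0.517 and 2.53 ± 0.622 TPM, gave -0.04, with an interval of -0.36 to 0.28. As folds these intervals ran from 0.851 to 1.22 for Lifr and from 0.779 to 1.21 for Osmr. The intervals do not include the choice of model. Over the other models the log2 fold change ran from 0.0024 to 0.27 for Il11ra1, -0.13 to 0.13 for Lifr and -0.24 to 0.023 for Osmr.

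For gp130 itself the spread between mice was wide. Il6st (chr13:112464070-112510086) had a lowest, median and highest level of 11.7, 21.8 and 40.4 TPM in WT mice and of 12.7, 16.3 and 31.5 TPM in WWP2Mut/Mut mice. The ranges overlapped almost fully, and the log2 fold change was -0.06 (SE 0.158, 95% interval -0.39 to 0.27). Il6ra was at 0.560 ± 0.233 TPM in WT and 0.457 ± 0.197 TPM in WWP2Mut/Mut mice, and its log2 fold change was -0.09 (SE 0.190). For the other 3 ligands the intervals were wide, at -2.12 to 1.23 for Il6, -0.79 to 0.70 for Lif and -1.10 to 0.90 for Osm on the log2 scale.

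**Figure D2:**
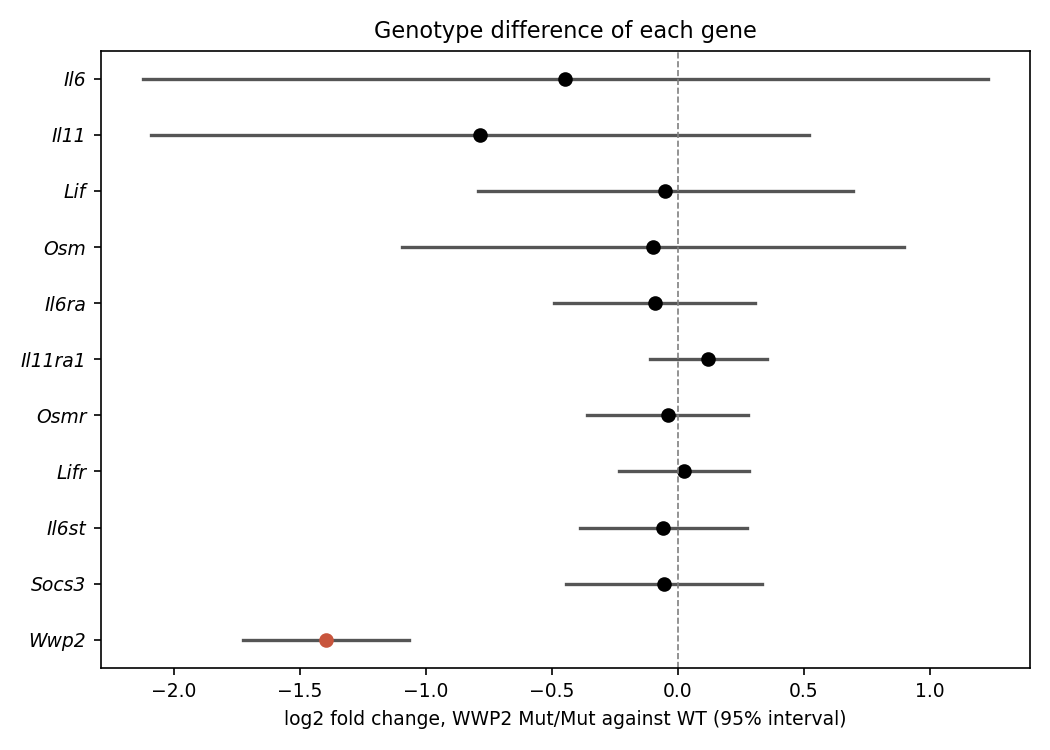
Log2 fold change of each gene in WWP2Mut/Mut against WT mice (edgeR, with lane and RNA concentration as covariates), with horizontal lines for the 95% interval. The interval of each of the 10 members includes 0 and that of Wwp2, from -1.73 to -1.07, does not.

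Socs3, the feedback inhibitor and the usual transcript to read for gp130 signalling, was not called either. Socs3 (chr11:117966079-117970047, minus strand) had a lowest, median and highest level of 1.02, 1.46 and 3.51 TPM in WT mice and of 0.99, 1.65 and 2.19 TPM in WWP2Mut/Mut mice. The WT range enclosed nearly all of the WWP2Mut/Mut range, and 2 WT mice stood above every WWP2Mut/Mut mouse. The log2 fold change was -0.05 (SE 0.185, 95% interval -0.44 to 0.33, edgeR unadjusted p = 0.773). Without WT mouse 25-3, the highest of the 18, it was 0.11.

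Within single lanes the genotype difference changed direction for most members. Between the 4 lanes, Il6st was higher in WWP2Mut/Mut mice in 2 lanes, by 7.64 TPM in lane 1 and 1.98 TPM in lane 4, and lower by 3.44 TPM in lane 2 and 16.7 TPM in lane 3. Socs3 was lower in 3 of 4 lanes, as were Il6, Il6ra, Il11ra1 and Osmr. Each lane held 2 or 3 mice of a genotype, so no test was made within a lane.

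The levels of gp130 and of the IL11 receptor varied with a coverage measure of the library. The deposited sample table gives each library a fraction for gene body coverage, labelled genebody_bottomhalf. Its definition is not stated in the sources used here, so a higher value cannot be read as fuller coverage. The fraction ran from 0.0288 to 0.0540. The genotypes overlapped in it, with a median of 0.0383 in WT and 0.0434 in WWP2Mut/Mut mice (exact permutation test, p = 0.720). Across 18 mice Il6st fell with this fraction on the log2 CPM scale (Pearson r = -0.929, Spearman rho = -0.940; permutation test, adjusted p = 0.0001 and 5e-05 over 10 members, from the smallest p the permutations allow). Il11ra1 rose with it (r = 0.854, rho = 0.889; permutation test, adjusted p = 0.0001 and 5e-05). Without the 2 mice farthest from the median fraction, r was -0.924 and 0.833.

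Both relations held within each genotype. For Il6st, r was -0.937 in 9 WT and -0.941 in 9 WWP2Mut/Mut mice (permutation test, adjusted p = 0.0021 and 0.0009). For Il11ra1, r was 0.960 and 0.822 (permutation test, adjusted p = 0.0009 and 0.0298). After genotype and lane were removed, r was -0.950 and 0.905 (permutation test, adjusted p = 5e-05 for each). That test shuffled the residuals as if each were free after the fit, so its p is too small. The fractions left a gap between 0.0341 and 0.0383, with 8 mice below it and 10 above. Among the 8, r was -0.543 for Il6st and 0.159 for Il11ra1, and among the 10 it was -0.790 and 0.730, so the relation of Il11ra1 was weak within the lower mice.

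**Figure D3:**
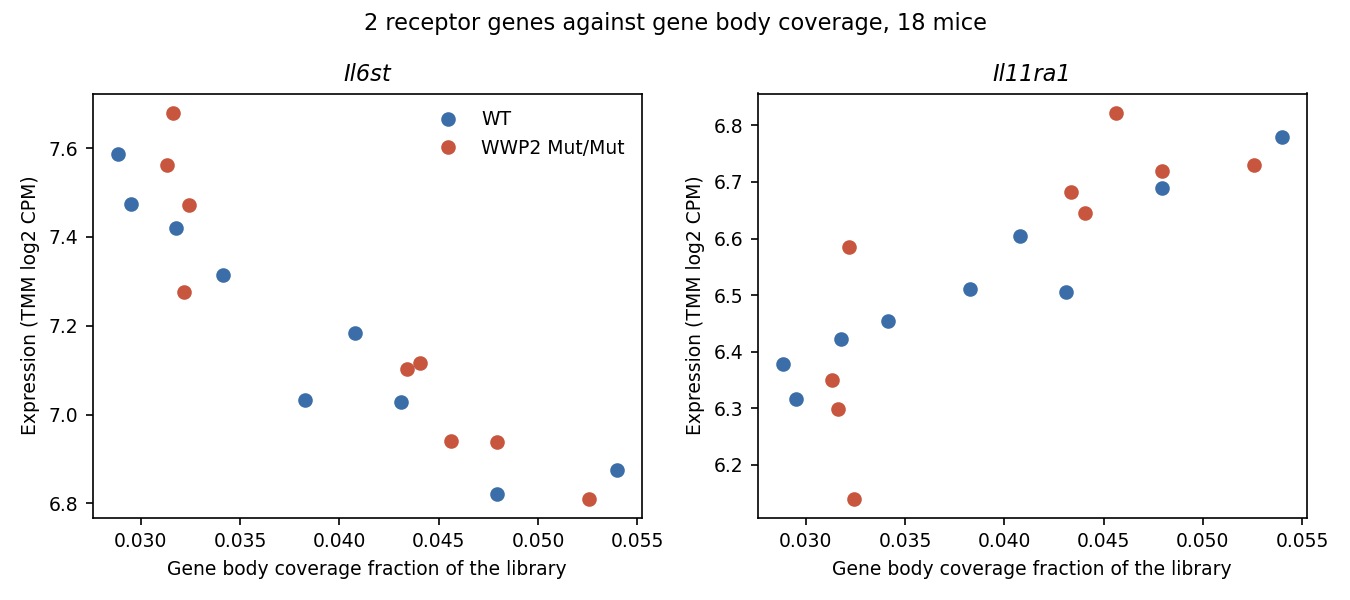
Level of Il6st (left) and Il11ra1 (right) in TMM log2 CPM against the gene body coverage fraction of the library, 1 point per mouse. Il6st falls (r = -0.929) and Il11ra1 rises (r = 0.854) along the axis, with WT and WWP2Mut/Mut mice mixed.

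Many other genes varied with this fraction as strongly. Of 11336 genes with a mean of 1 TPM or more, 2.45% had an r as low as that of Il6st and 3.43% an r as high as that of Il11ra1. The other 8 members had no relation with an adjusted p below 0.05 on this scale. On log2(TPM + 1), Il6ra (r = -0.743), Lifr (r = -0.761) and Socs3 (r = -0.566) fell with the fraction as well (permutation test, adjusted p = 0.002, 0.00153 and 0.0244). Il11ra1 and Il6st ran opposite to each other over the 18 mice (r = -0.869), and r was -0.394 once the fraction was removed from both. With the fraction in place of RNA concentration as covariate, the genotype log2 fold change of Il6st was 0.06 in place of -0.06 and that of Il11ra1 was 0.0024 in place of 0.12. The part of the fraction in these levels was not tested further.

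Socs3 was set against the other 9 members to see whether it moved with any ligand or receptor. On the log2 CPM scale, no Pearson correlation had an adjusted p below 0.05 (permutation test, smallest adjusted p = 0.277). The highest were with Il6ra (r = 0.444, rho = 0.664; permutation test, adjusted p = 0.277 and 0.0299) and Lifr (r = 0.432, rho = 0.556; permutation test, adjusted p = 0.277 and 0.0842). Without the 2 mice farthest from the median of the member, r was 0.506 and 0.383. After genotype, lane and RNA concentration were removed, Lifr alone was past the threshold (r = 0.676, permutation test, adjusted p = 0.0173). That test shuffled the residuals of 18 mice as if each were free, although the fit had used part of that freedom. Its p is therefore too small, and it cannot decide whether Lifr passes. Without this removal, Il6st gave r = 0.387, Osmr 0.378, Il6 0.334, Il11 0.318, Osm 0.129, Lif -0.00 and Il11ra1 -0.28. Within WT or WWP2Mut/Mut mice alone, none of the 9 had an adjusted p below 0.05. On log2(TPM + 1), the scale on which Socs3, Il6ra and Lifr fell with gene body coverage, 5 of 9 passed, namely Il6ra, Lifr, Osmr, Il6st and Il11.

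The genes whose pattern over 18 mice was most like that of each member, by Spearman rho over 11336 genes, are given as a description. Il6st was most like Rdx (rho = 0.981), Enpp4 (0.977) and Tgoln1 (0.975), each with an r to gene body coverage of -0.903 or lower. Il11ra1 was most like Gstp1 (rho = 0.961), Ccdc124 (0.955) and Grcc10 (0.950), each with an r to gene body coverage of 0.860 or higher. Lifr was most like Pld1 (0.862), Aox1 (0.845) and the transcription factor Foxo1 (0.831), and Osmr most like the acetyltransferase Crebbp (0.907), Shank3 (0.866) and Trim24 (0.864). Socs3 was most like Klf13 (0.827), the clock repressor Nr1d1 (0.814) and Tcf7l1 (0.810), whose r to gene body coverage lay between -0.381 and -0.128. The mice share lanes, and their libraries differ in coverage.

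The rest of the pathway held no called gene. Of 12 other ligands and receptors of the family 10 were tested (Ctf2 and Il31 were not), and 0 had an unadjusted p below 0.05. Ctf1, cardiotrophin 1, was at 3.11 ± 0.973 TPM in WT and 2.72 ± 0.778 TPM in WWP2Mut/Mut mice (SD, n = 9 each), above any of the 4 ligands. Among the smallest p values were those of Il31ra (edgeR unadjusted p = 0.142) and Ebi3 (edgeR unadjusted p = 0.216). Of 17 JAK-STAT transducers and inhibitors, 0 had an unadjusted p below 0.05. Among the smallest were Socs1 (log2 fold change 0.32, edgeR unadjusted p = 0.258) and Pias3 (-0.13, edgeR unadjusted p = 0.298). Stat3 itself, the main transducer of gp130, was at 20.3 ± 7.27 TPM in WT and 18.1 ± 6.34 TPM in WWP2Mut/Mut mice.

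Of 21 genes that STAT3 is known to induce, 3 had an unadjusted p below 0.05, all lower in WWP2Mut/Mut mice, and 0 were called, against 2.57% of all genes tested that were lower at that p. The median log2 fold change of the 21 was 0.01, with 10 below 0 and 11 above. Ccl2, a chemokine that draws monocytes, had a lowest, median and highest level of 1.59, 3.21 and 6.13 TPM in WT mice and of 1.21, 1.95 and 2.81 TPM in WWP2Mut/Mut mice. Its log2 fold change was -0.50 (SE 0.177, edgeR unadjusted p = 0.0112, adjusted p = 0.991), and the groups overlapped. Myc, a growth-related transcription factor, was at a median of 1.47 TPM (0.59 to 2.82) in WT and 1.03 TPM (0.64 to 1.73) in WWP2Mut/Mut mice (log2 fold change -0.54, SE 0.188, edgeR unadjusted p = 0.0100, adjusted p = 0.973). Pim1, a kinase, was at 5.01 ± 1.72 and 3.45 ± 0.962 TPM (-0.37, SE 0.150, edgeR unadjusted p = 0.0219, adjusted p = 1). With the hepatocyte markers, which were lower in the same mice, as a further covariate, the log2 fold changes were -0.64 for Ccl2, -0.64 for Myc and -0.52 for Pim1.

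Levels of other cell types were read for the same mice. The summed TPM of 8 fibroblast markers was 200.3 to 561 in WT and 238 to 444 in WWP2Mut/Mut mice (exact permutation test, p = 0.212), and that of 8 leukocyte markers was 123 to 262 and 128 to 216 (p = 0.267). The sums of 5 endothelial markers (exact permutation test, p = 0.306), 5 smooth muscle and pericyte markers (p = 0.315) and 4 atrial markers (p = 0.211) likewise overlapped between genotypes. Of the 5 smooth muscle and pericyte markers, 1 was higher in WWP2Mut/Mut mice at an edgeR unadjusted p below 0.05, against 1.09% of all genes tested. This was the actin-binding protein Tagln (log2 fold change 0.48, edgeR unadjusted p = 0.0324). The sum of the 7 cardiomyocyte markers had a median of 46739 TPM in WT and 43143 TPM in WWP2Mut/Mut mice (exact permutation test, p = 0.0384), with 0 of the 7 genes at an edgeR unadjusted p below 0.05. No marker was at 0 in all mice.

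The mouse with the highest Socs3, WT mouse 25-3, was chosen after its values were seen and is described without a test. In TPM it held the highest level of the 18 mice for 4 of the 10 members: Socs3 at 3.51 TPM, Osmr at 3.61 TPM, Il6 at 0.14 TPM from 7 counts and Il11 at 0.13 TPM from 6 counts. In CPM only Socs3 and Il6 were highest in it, and 3 mice were above it for Osmr and 2 for Il11. Of the 21 STAT3-induced genes, 7 were highest in it in TPM, against 5 in WT mice 43-3 and 45-1 and at most 1 in any other mouse. The gene body coverage fraction was 0.0295 in 25-3, 0.0288 in 43-3 and 0.0408 in 45-1. The library of 25-3 also held hepatocyte transcripts, with Alb at 26.4 TPM. For mouse 25-3, the part of coverage or of hepatocyte RNA in these levels was not tested. Saa3, an acute-phase serum amyloid, was at 3.27 TPM in this mouse and at 0 to 0.55 TPM in the other 17. Lcn2, a secreted iron-binding protein of inflammation, was at 7.41 TPM against 1.54 to 5.17 TPM, and Serpina3n, an acute-phase protease inhibitor, at 12.3 TPM against 3.04 to 10.9 TPM. The metallothionein Mt2 was at 122 TPM against 37.1 to 96.7 TPM. The immediate-early gene Fos and the transcription factor Cebpd, of the same list, each ranked 7 of 18 in it.

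The balance of hepatocyte transcripts in the same library also stood apart. The ratio of the 3 fibrinogen transcripts Fga, Fgb and Fgg, which IL6 induces in liver, to albumin was 0.653 in WT mouse 25-3. In the other 12 mice with at least 1 TPM of Alb it lay between 0.0839 and 0.173. The relation of this ratio to the Socs3 level was not tested. Icam1 (6.25 TPM against 3.04 to 6.18 TPM) was barely above the next mouse.

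**Figure D4:**
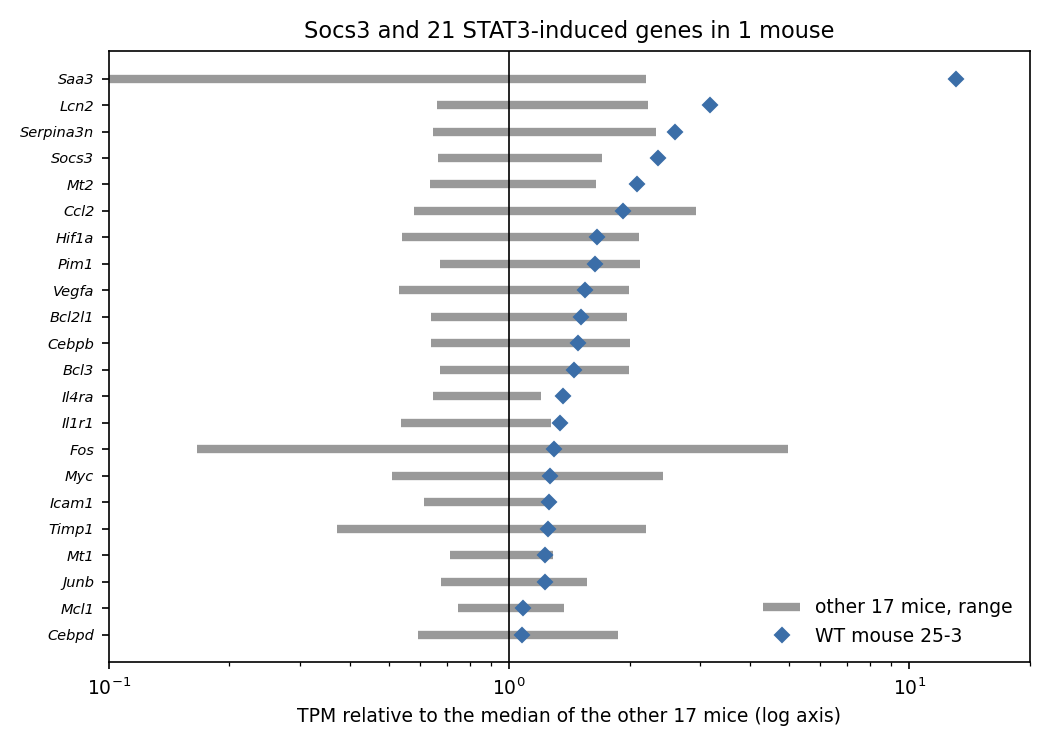
TPM of Socs3 and 21 STAT3-induced genes in WT mouse 25-3 (diamonds) relative to the median of the other 17 mice, whose range is drawn as grey bars on a log axis that starts at 0.1, so a lowest value of 0 is drawn at the edge. Saa3, Lcn2, Serpina3n, Socs3, Mt2, Il4ra, Il1r1 and Icam1 lie above the range, Saa3 by the most and Icam1 barely, and the other 14 genes lie within it.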

How the data were processed

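Poly(A)-selected RNA from 18 left ventricles was sequenced. The authors aligned reads with STAR 2.5.2b, estimated counts with RSEM 1.2.31 and removed rRNA and mitochondrial genes; whether strand was used in counting is not given in the sources used here. The deposited tables hold expected counts (5.11% of values not whole) and TPM, which summed to 671770 to 826381 per mouse. The deposited sample table gives lane, RNA concentration (1.68 in WT mouse 43-3 against 88.6 to 321 in the others) and a fraction for gene body coverage.

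Expected counts were rounded, genes summing to 1 count or less were dropped, and the remaining 24804 were tested with edgeR 4.0.16 (TMM, quasi-likelihood) in R 4.3.3. Lane and the centred RNA concentration entered the model. Benjamini-Hochberg adjustment ran over all genes, and a gene was called below 0.05. The pipeline was tested on simulated data. DESeq2 1.42.0 and limma 3.58.1, other normalizations, filters and covariates and leaving out each mouse were alternatives. Single TPM values were compared over all 48620 divisions of the mice, and correlations by 100000 permutations (Python 3.11.15, numpy 2.4.6, scipy 1.17.1, pandas 2.3.3). The members and lists were chosen with earlier results of these data known. Genes named beyond the members and Wwp2 were those of each pathway list with an unadjusted p below 0.05, or the 3 with the smallest p, and the 3 genes most like each member of 1 TPM or more. Other genes named were chosen after their values were seen. The hepatocyte covariate and the relations to gene body coverage were added after seeing the data. Some genes that this rule names are not reported here. Replicates are separate mice.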

Additional observations from a re-analysis of the deposited data

How the results depend on the processing

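No alternative called a member, and Wwp2 was called in each. Genes called over all genes numbered 1 to 2 when single mice were left out, 2 without WT mouse 84-2 and 2 without WWP2Mut/Mut mouse 1-2. With hepatocyte markers as a covariate, 1 member (Il11ra1, log2 fold change 0.27, edgeR unadjusted p = 0.0353) had an unadjusted p below 0.05, against 5.75% of all genes in that fit. No paired analysis was possible because the groups share no replicate numbers. The log2 fold change of Il11 was below 0 in each alternative that tested it. That of Il11ra1 was 0.0024 to 0.27 over the other models, whereas its difference in mean TPM was -0.396. Ligand counts limit what can be said of Il6, Il11, Lif and Osm, and the cause of the sign changes below was not tested.

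The sign of small genotype differences changed with the settings, and none of these differences was called. Without covariates the log2 fold change was 0.091 for Osm, 0.023 for Osmr and 0.024 for Il6st. With lane alone it was 0.10 for Osm, 0.018 for Osmr, 0.035 for Il6st and 0.011 for Socs3. With gene body coverage added it was 0.047 for Il6st, and with coverage in place of RNA concentration it was 0.12 for Osm, 0.014 for Osmr, 0.064 for Il6st, 0.037 for Socs3 and -0.11 for Socs1. With hepatocyte markers added it was 0.48 for Il6, 0.0038 for Osmr and 0.11 for Socs3. In limma it was 0.029 for Lif and -0.10 for Lifr on log2(TPM + 1), and 0.16 and -0.13 on log2(TPM + 0.1). With TPM rescaled to an equal total, the difference in TPM was 0.000774 for Osm, 0.280 for Il11ra1 and 0.0616 for Lifr. When each mouse was left out in turn, the log2 fold change ran from -0.28 to 0.18 for Lif, -0.25 to 0.088 for Osm, -0.22 to 0.0014 for Il6ra, -0.15 to 0.10 for Osmr, -0.029 to 0.11 for Lifr and -0.20 to 0.11 for Socs3.

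Members related to Socs3 at an adjusted p below 0.05 numbered 0 in the main setting, 5 on log2(TPM + 1) and 1 among residuals, where the test gives too small a p. The r of Socs3 with Lif was 0.242 on log2(TPM + 1), 0.157 within WT mice and 0.00704 without the 2 farthest mice. Members related to gene body coverage numbered 2 in the main setting and 5 on log2(TPM + 1). On that scale r with coverage was -0.250 for Il11, -0.265 for Osm and -0.316 for Osmr. Among residuals it was -0.0496 for Il11, 0.114 for Lif and -0.232 for Osm. Within WWP2Mut/Mut mice it was -0.00933 for Il11, 0.150 for Lif and -0.227 for Osm, and within WT mice 0.231 for Lifr. Without the 2 farthest mice it was -0.211 for Osm.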
